A study of Mus musculus with 12 samples.

Results

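The interaction of liver and treatment asks whether anti-VEGF changed tumour gene expression by a different amount in fatty than in healthy liver. For each gene it is the difference between anti-VEGF and vehicle in fatty liver minus the same difference in healthy liver, on the log2 scale of the deposited values. All 12 arrays of the series enter it, 3 for each of 4 groups. Mouse colorectal cancer had been injected into the livers, and the groups are tumours from healthy liver given Vehicle, healthy liver given Anti-VEGF, fatty liver given Vehicle and fatty liver given Anti-VEGF. The design text counts 3 mice a group, and all 4 groups share the tumour and the organ. Several things about the model are unknown, namely the mouse strain, the means of making the liver fatty, the antiangiogenic agent behind the name anti-VEGF, its dose and its duration, on which the sources used here are silent. Of 22180 genes with a row of their own on the array, 13286 lay above the table median of 4.93 on at least 3 arrays and were tested. A positive interaction means that anti-VEGF minus vehicle was greater in fatty liver, and a negative one that it was greater in healthy liver.

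Vascular endothelial growth factor A (Vegfa) acts on receptors of endothelial cells, above all Kdr, to drive the sprouting and survival of blood vessels, and agents against it are given to patients with colorectal cancer that has spread to the liver. A fatty liver surrounds a tumour with lipid-laden hepatocytes and with inflammatory cells, so both fuel and immune setting may differ from those of a healthy liver. Interferons are cytokines whose receptors act through STAT and IRF factors to induce a common programme of antiviral enzymes, guanylate-binding proteins and antigen presentation genes, in tumour cells as well as in macrophages.

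Several features of the 12 arrays bear on everything that follows. The median SD of a gene among the arrays of 1 group was 0.15 in healthy liver vehicle, 0.065 in healthy liver anti-VEGF, 0.134 in fatty liver vehicle and 0.206 in fatty liver anti-VEGF. Vehicle array 2 of each liver and anti-VEGF arrays 1 and 3 of fatty liver stood apart from the rest of their groups, while vehicle arrays 1 and 3 of each liver and the 3 healthy liver anti-VEGF arrays were nearly alike, with an SD of the difference over all tested genes of 0.163 or less. Xist, which coats and shuts down 1 X chromosome of female cells, read 8.10 and 8.43 on vehicle arrays 1 and 3 of healthy liver and 10.58 and 10.45 on those of fatty liver, and at most 4.32 on the other 8 arrays. Every anti-VEGF array thus lacked Xist while 4 of 6 vehicle arrays had it, and these values cannot tell whether arrays so much alike stem from different mice. Of 16 epithelial tumour markers on the array 8 were measured, among them Cdh1, Krt8, Krt18 and Cdx2, whereas Epcam, Krt19 and Krt20 did not clear the limit. Of 28 hepatocyte markers 7 were measured, with list means of 5.39 to 6.31, and Alb did not clear the limit.

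No gene passed the test of the interaction. In limma, with Benjamini-Hochberg adjustment over the 13286 genes, 0 genes (0%) had an adjusted p below 0.05, and the lowest adjusted p, 0.278, was shared by 5 genes. At an unadjusted p below 0.05 there were 677 genes (5.1%), 274 with a positive and 403 with a negative interaction. The treatment differences on which the interaction is built were themselves thin: 0 genes (0%) passed in healthy liver, where 1118 had an unadjusted p below 0.05, and 1 gene (0.00753%), Klk1b11, passed in fatty liver, where 778 did. The median interaction over all tested genes was 0.02 and the median of its absolute value 0.14, against a median standard error (SE) of 0.19.

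The precision differed widely between genes. For 11016 genes (82.9%) the 95% interval of the interaction lay within 1 log2 unit of 0 in both directions, and for 4930 (37.1%) within 0.5. Point estimates beyond 1 log2 unit were found for 188 genes and beyond 2 for 14. These intervals are per gene and not adjusted for the number of genes, so an interval that leaves out 0 is not a call. The p-values measure the spread between these arrays, which the labels call biological replicates. If the nearly alike arrays do not stem from different mice, that spread, and with it the SE and p-values, is too small.

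**Figure D1:**
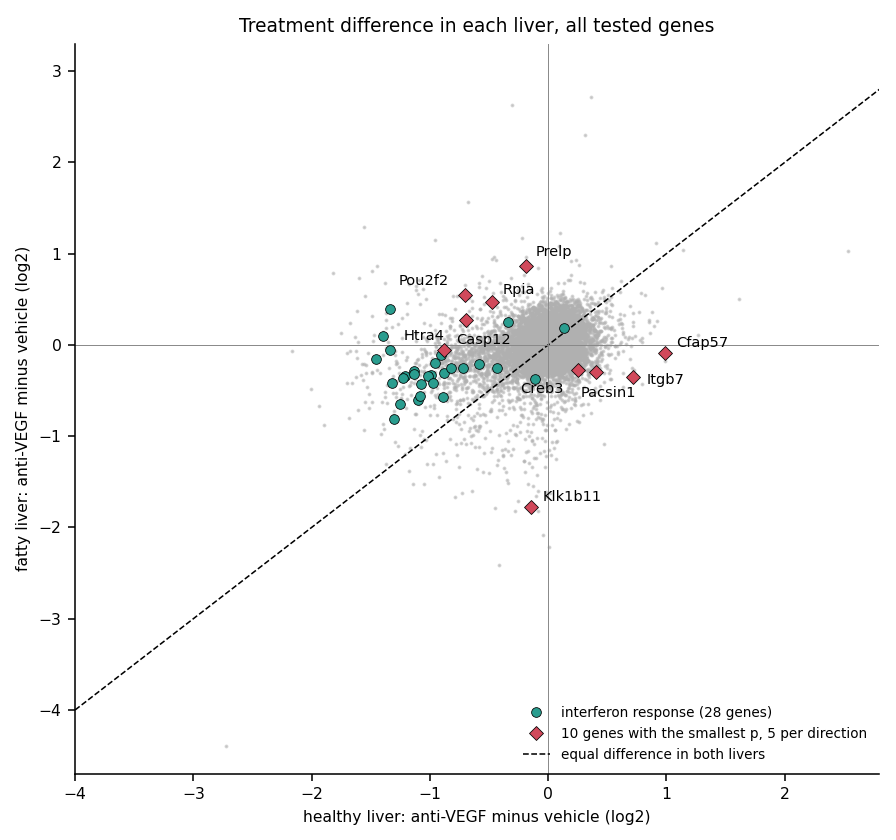
Each grey point is 1 of the 13286 tested genes, with anti-VEGF minus vehicle in healthy liver on the x axis and in fatty liver on the y axis (log2, means of 3 arrays per group). Points on the dashed line have no interaction. The interferon response genes (circles) lie mostly to the left, at a median of -1.05 in healthy liver and -0.31 in fatty liver, and the 10 genes with the smallest p, predicted and clone-named genes aside (diamonds), lie on both sides of the line.

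Predicted and clone-named genes were set aside in choosing the 5 genes of each direction with the smallest p. Among the positive ones, Pou2f2, which encodes the lymphoid and myeloid transcription factor Oct-2, came first. In healthy liver it read 6.47, 6.80 and 6.66 on the vehicle arrays and 6.15, 5.88 and 5.78 on the anti-VEGF arrays. In fatty liver the vehicle arrays read 8.37, 8.21 and 8.12 and the anti-VEGF arrays 8.95, 8.70 and 8.69. The groups did not overlap in either liver, and they were ordered oppositely, with anti-VEGF below vehicle in healthy and above it in fatty liver. The difference was -0.71 in healthy and 0.55 in fatty liver, and the interaction was 1.25 (SE 0.18, 95% interval 0.85 to 1.66, limma adjusted p = 0.278). Leaving out any 1 array moved it between 1.17 and 1.36. Over all genes, 32 (0.241%) did not overlap in either liver with anti-VEGF lower in healthy and higher in fatty liver, and 58 (0.437%) the other way round.

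Casp12, an inflammatory caspase resident at the endoplasmic reticulum, went a different route to its positive interaction. Healthy liver tumours read 7.45, 7.64 and 7.52 under vehicle against 6.64, 6.67 and 6.67 under anti-VEGF. Fatty liver tumours read 6.23, 6.24 and 6.13 under vehicle against 6.24, 5.88 and 6.32 under anti-VEGF. The treatment groups were thus separate in healthy liver and overlapped in fatty liver, where the level was low under both treatments. The interaction was 0.82 (SE 0.15, 95% interval 0.48 to 1.16, limma adjusted p = 0.440).

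Htra4, a secreted serine protease of the HtrA family, had vehicle arrays at 5.79, 5.95 and 5.97 and anti-VEGF arrays at 5.28, 5.31 and 5.03 in healthy liver. Its fatty liver arrays read 6.48, 6.64 and 6.61 under vehicle against 6.61, 6.88 and 7.04 under anti-VEGF. Separation was again complete in healthy liver only, and the interaction was 0.97 (SE 0.17, limma adjusted p = 0.364).

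Prelp encodes a leucine-rich proteoglycan of the extracellular matrix. It was separated mainly in fatty liver, with vehicle arrays at 7.22, 7.51 and 6.99 and anti-VEGF arrays at 8.39, 7.77 and 8.17. Healthy liver arrays lay at 8.65, 8.78 and 8.68 under vehicle against 8.51, 8.42 and 8.62 under anti-VEGF, a small step in the opposite direction. The interaction was 1.05 (SE 0.23, limma adjusted p = 0.690), and a second, dimmer row of the gene gave 0.25.

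Rpia, the ribose-5-phosphate isomerase of the pentose phosphate pathway, read 8.33, 8.07 and 8.40 against 7.74, 7.79 and 7.86 in healthy liver, vehicle first. In fatty liver the corresponding values were 7.65, 7.19 and 7.45 against 7.72, 7.83 and 8.16. Neither liver's groups overlapped and the order turned between them, with an interaction of 0.94 (SE 0.21, limma adjusted p = 0.690). Prelp, Rpia and Pou2f2 are among the 32 genes with this pattern.

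Of the 5 negative interactions with the smallest p, Klk1b11 had the largest difference and was the only gene that passed the test of treatment in 1 liver. It encodes a tissue kallikrein, a serine protease of a large mouse family whose members are near-identical in sequence, so cross-hybridisation between them cannot be told apart from its own signal. Fatty liver vehicle arrays read 7.87, 7.60 and 7.84 and anti-VEGF arrays 6.09, 6.18 and 5.71. Healthy liver arrays stayed near the limit of 4.93 throughout, at 4.86, 5.05 and 5.57 under vehicle against 5.12, 5.09 and 4.83 under anti-VEGF. Klk1b11 fell by 1.78 in fatty liver (SE 0.19, limma adjusted p = 0.0257), and the interaction was -1.63 (SE 0.27, 95% interval -2.22 to -1.04, limma adjusted p = 0.278). A value near the limit in healthy liver can hide a decrease there. No gene passed in fatty liver without healthy liver vehicle array 2, any 1 healthy liver anti-VEGF array, any 1 fatty liver vehicle array or fatty liver anti-VEGF array 3.

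Cfap57, a protein of the axoneme of cilia, behaved as the reverse of Casp12. In healthy liver it read 5.78, 5.64 and 5.89 under vehicle against 6.77, 6.68 and 6.83 under anti-VEGF, and in fatty liver 5.27, 5.22 and 5.0 against 4.95, 5.30 and 4.97. Anti-VEGF was higher on every healthy liver array, and the fatty liver groups overlapped close to the limit. The interaction was -1.08 (SE 0.16, limma adjusted p = 0.278).

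Itgb7, the integrin beta chain that directs lymphocytes to the gut, read 9.47, 9.27 and 9.47 under vehicle against 10.14, 10.16 and 10.08 under anti-VEGF in healthy liver. In fatty liver it read 9.67, 9.82 and 9.69 against 9.70, 9.41 and 9.04, so that 1 anti-VEGF array reached the vehicle range. Its interaction was -1.07 (SE 0.20, limma adjusted p = 0.440).

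The last pair of negative genes had small differences with little spread. Pacsin1, an adaptor of endocytosis best known from neurons, read 5.35, 5.28 and 5.32 against 5.82, 5.65 and 5.69 in healthy liver and 5.42, 5.58 and 5.59 against 5.33, 5.24 and 5.13 in fatty liver (interaction -0.70, SE 0.12, limma adjusted p = 0.290). Creb3, a membrane-bound transcription factor of the secretory pathway, read 8.94, 9.04 and 8.90 against 9.23, 9.19 and 9.22 in healthy liver and 9.51, 9.50 and 9.42 against 9.28, 9.16 and 9.18 in fatty liver (interaction -0.52, SE 0.10, limma adjusted p = 0.440). Both were higher under anti-VEGF in healthy and lower in fatty liver with no overlap, and belong to the 58 genes of that kind.

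**Figure D2:**
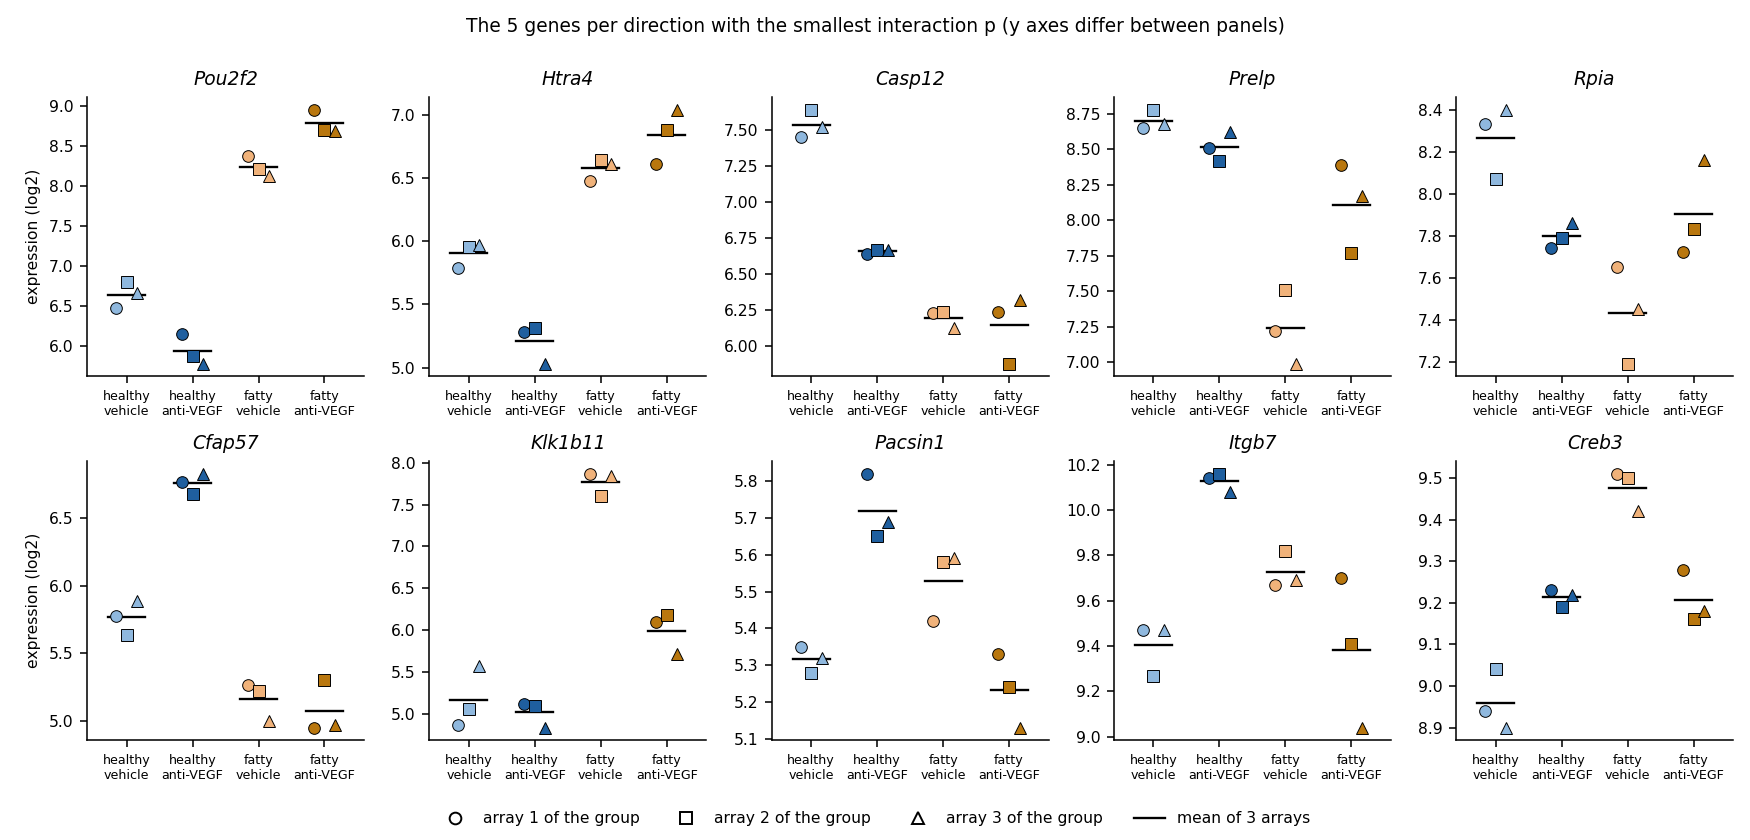
Expression (log2) of the 5 genes with the smallest p and a positive interaction (top row) and the 5 with a negative one (bottom row), 1 symbol per array and a bar at the mean of 3. Pou2f2, Prelp, Rpia, Pacsin1 and Creb3 separate vehicle from anti-VEGF in opposite orders in the 2 livers, and the others separate them in 1 liver. The y axes differ between panels.

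The interferon response was the gene group with the most members at a small p. Under anti-VEGF its transcripts were lower on nearly every healthy liver array, while the fatty liver groups overlapped for all but 1 member. Of the 28 measured genes, 0 passed the test of the interaction and 27 had a positive interaction. An unadjusted p below 0.05 was found for 10 of the 28, all with a positive sign. Over all 13286 tested genes it was found for 677 (5.1%), 274 of them positive. The median of the list was 0.63 against 0.02 over all genes, with a median treatment difference of -1.05 in healthy and -0.31 in fatty liver. Fewer cells of a responding type and less RNA per cell cannot be told apart in bulk tissue.

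The mean of the list separated the treatments in healthy liver and not in fatty liver. On the vehicle arrays of healthy liver it was 8.47, 8.86 and 8.5, and with treatment 7.64, 7.63 and 7.69. In fatty liver the vehicle arrays had means of 9.36, 9.65 and 9.37 and the anti-VEGF arrays of 9.74, 9.05 and 8.77. In healthy liver, vehicle array 2, without Xist, and arrays 1 and 3, with it, all lay above the anti-VEGF arrays. Array 2 stood apart in other genes too, with a macrophage list mean of 9.56 against 8.53 and 8.55. The parts of sex and cell content in this separation were not tested. The fatty liver anti-VEGF arrays spread from above the highest vehicle array to below the lowest.

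Counted by gene, the anti-VEGF arrays of healthy liver lay wholly below the vehicle arrays for 26 of the 28 genes, against 11.7% of all tested genes, and wholly above them for none, against 13.1%. In fatty liver they lay wholly below for 1 gene, Ifit2, against 4.99% of all genes, and wholly above for none, against 3.07%. The members outside the healthy liver pattern were Ifit3, with an interaction of 0.05 (95% interval -0.48 to 0.58), and Isg20, with -0.26 (95% interval -0.96 to 0.44). The median interaction of the list stayed between 0.34 and 0.91 when any 1 array was left out, lowest without fatty liver anti-VEGF array 1 and highest without array 3 of that group. It was 0.61 with 1 vehicle array per liver, after arrays 1 and 3 of both livers were left out, and 0.64 without vehicle array 2 of both livers.

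**Figure D3:**
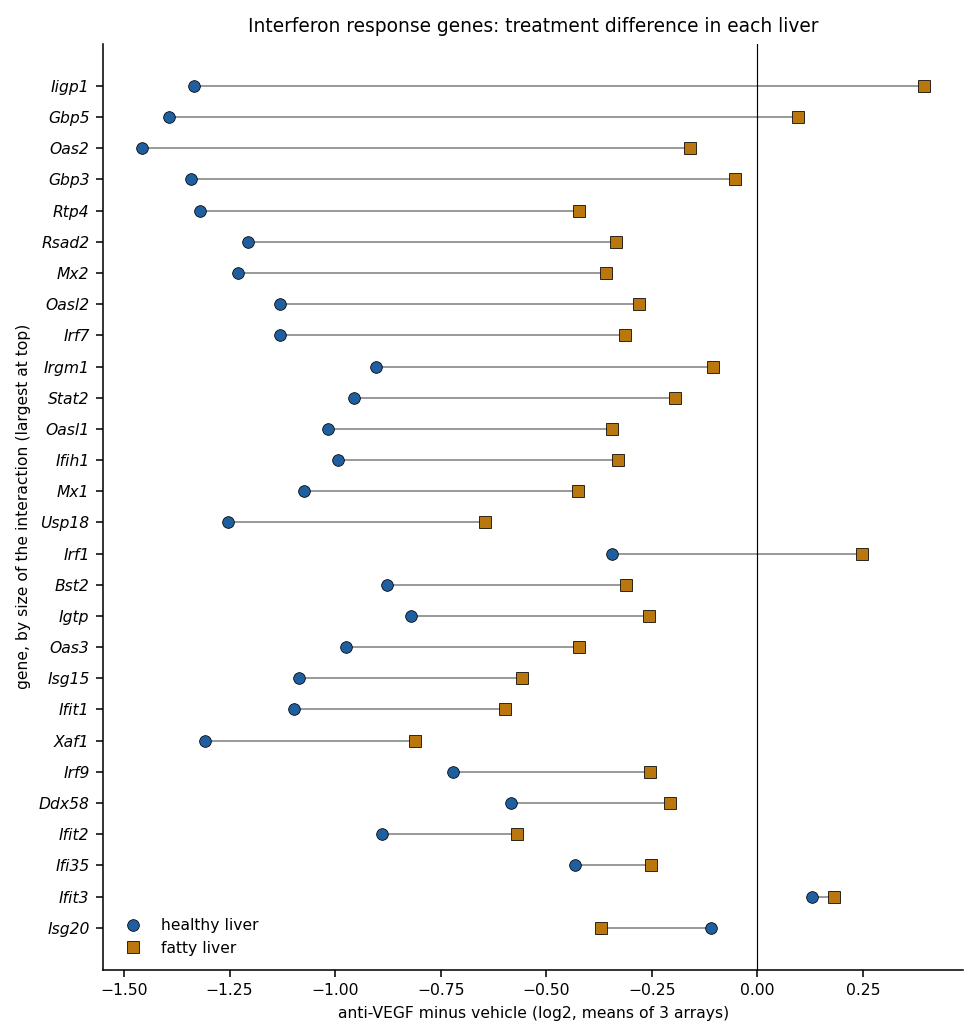
Anti-VEGF minus vehicle (log2, means of 3 arrays) of the 28 interferon response genes in healthy liver (circles) and fatty liver (squares), ordered by the size of the interaction. The fatty liver value lies to the right of the healthy liver value for 27 genes, Isg20 being the exception.

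Iigp1, an interferon-inducible GTPase that attacks the vacuoles of intracellular parasites, had the largest interaction of the list. It read 7.74, 9.20 and 7.66 under vehicle against 6.85, 6.81 and 6.95 under anti-VEGF in healthy liver, and 8.03, 8.58 and 8.19 against 8.28, 8.64 and 9.06 in fatty liver. All 3 healthy liver anti-VEGF arrays were below every vehicle array, and the fatty liver groups overlapped. The interaction was 1.73 (SE 0.51, 95% interval 0.60 to 2.86, limma adjusted p = 0.852), and it was 1.23 at the lowest when 1 array was left out.

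Gbp5, a guanylate-binding protein that supports inflammasome activity, showed the same order. Its healthy liver arrays read 7.02, 7.71 and 7.11 against 5.71, 6.02 and 5.93, and its fatty liver arrays 8.12, 9.06 and 8.16 against 9.11, 8.17 and 8.34. The interaction was 1.49 (SE 0.43, limma adjusted p = 0.852). Its relative Gbp3 read 7.29, 7.73 and 7.27 against 6.18, 5.74 and 6.36 in healthy liver and 7.43, 7.74 and 7.32 against 8.05, 6.99 and 7.30 in fatty liver, with an interaction of 1.29 (SE 0.37, limma adjusted p = 0.852).

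Oas2, which makes the oligoadenylates that activate the antiviral ribonuclease RNase L, read 9.05, 9.52 and 9.07 against 7.68, 7.71 and 7.88 in healthy liver and 10.36, 10.46 and 10.33 against 10.99, 10.06 and 9.62 in fatty liver. Its interaction was 1.30 (SE 0.39, limma adjusted p = 0.876). Rsad2 and Irgm1 were picked from the list after their values were seen. Rsad2, the antiviral enzyme viperin, read 9.99, 10.15 and 9.97 against 8.82, 8.81 and 8.86 in healthy liver and 10.89, 10.96 and 11.02 against 11.32, 10.57 and 9.97 in fatty liver. For Oas2 and Rsad2 alike, anti-VEGF array 1 of fatty liver was above all vehicle arrays and arrays 2 and 3 were below them. The Rsad2 interaction was 0.87 (SE 0.36, limma adjusted p = 0.964). Irgm1, a GTPase that regulates that family's activity, read 7.91, 8.46 and 7.90 against 7.28, 7.20 and 7.08 in healthy liver and 8.60, 8.94 and 8.51 against 8.93, 8.40 and 8.40 in fatty liver (interaction 0.80, SE 0.27, limma adjusted p = 0.964).

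Further interferon-inducible genes outside the list, singled out after their values were seen, had smaller p than its members. Gm4951, a GTPase of the family of Iigp1, read 8.10, 8.91 and 8.11 against 7.16, 7.36 and 7.24 in healthy liver and 8.44, 8.58 and 8.64 against 8.93, 9.24 and 9.45 in fatty liver. Its groups did not overlap in either liver and the order was reversed, with an interaction of 1.77 (SE 0.29, 95% interval 1.12 to 2.41, limma adjusted p = 0.278). F830016B08Rik, a neighbour of the same family, read 7.58, 8.42 and 7.66 against 6.18, 6.23 and 6.23 in healthy liver, and 6.87, 6.82 and 6.92 against 6.93, 6.85 and 7.55 in fatty liver. The healthy liver groups were separate by over 1 log2 unit and the fatty liver groups overlapped (interaction 1.92, SE 0.32, limma adjusted p = 0.278). Members of this GTPase family are related in sequence, so any signal shared between their probes cannot be told apart. Gm12250, the GTPase Irgb10, had an interaction of 1.54 (SE 0.35, limma adjusted p = 0.690), Lgals3bp 0.77 (SE 0.19), the ubiquitin ligase Trim21 0.69 (SE 0.16) and the surface protein Ly6e 0.51 (SE 0.12).

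Interferon-stimulated factors bind a response element searched here as GAAA, any 2 bases, then GAAA. RefSeq promoter windows of build GRCm38.p6, 250 bases before to 50 bases after a gene's start, were at hand for 22 of the 28 list members and 10410 of the 13286 tested genes. The letters occurred on either strand in the windows of 13 members (59.1%) and of 396 tested genes (3.8%). The list was assembled from interferon-inducible genes, so this share describes the list and is not evidence on treatment. The 250 bases before the start of 4 members described above are shown with the match, or its reverse complement (TTTC, any 2 bases, then TTTC), in capitals. These were picked by size of interaction among members holding a match, with every match before the start and 1 chromosome left out. The lines give the strand of the gene, 5′ to 3′. Gbp5 lies at chr3:142496684-142496933 on the plus strand, Gbp3 at chr3:142559794-142560043 on the plus strand, Rsad2 at chr12:26456453-26456702 on the minus strand and Irgm1 at chr11:48871421-48871670 on the minus strand.
Gbp5: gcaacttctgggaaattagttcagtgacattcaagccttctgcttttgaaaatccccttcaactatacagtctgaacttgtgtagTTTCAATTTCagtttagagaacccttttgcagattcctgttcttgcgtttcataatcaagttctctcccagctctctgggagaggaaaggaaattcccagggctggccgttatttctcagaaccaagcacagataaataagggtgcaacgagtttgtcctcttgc
Gbp3: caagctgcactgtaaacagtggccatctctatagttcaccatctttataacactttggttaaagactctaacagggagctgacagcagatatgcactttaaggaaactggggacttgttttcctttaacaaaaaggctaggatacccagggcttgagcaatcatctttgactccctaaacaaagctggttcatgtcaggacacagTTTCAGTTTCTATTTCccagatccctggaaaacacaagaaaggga
Rsad2: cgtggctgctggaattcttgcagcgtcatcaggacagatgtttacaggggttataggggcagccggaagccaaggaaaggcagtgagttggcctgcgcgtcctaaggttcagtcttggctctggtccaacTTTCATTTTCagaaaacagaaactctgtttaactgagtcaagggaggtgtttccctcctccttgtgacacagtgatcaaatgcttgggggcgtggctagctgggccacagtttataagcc
Irgm1: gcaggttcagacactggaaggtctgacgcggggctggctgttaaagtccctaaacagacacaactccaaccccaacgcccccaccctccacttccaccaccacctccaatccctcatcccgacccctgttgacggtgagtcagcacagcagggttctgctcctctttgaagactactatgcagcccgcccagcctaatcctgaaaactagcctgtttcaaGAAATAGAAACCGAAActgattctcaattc
Gbp3 and Irgm1 each hold 2 overlapping matches close to the start, and Gbp5 and Rsad2 hold 1 match each, farther upstream. A match of letters does not show that a factor binds there.

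Genes next to the interferon programme followed it in part. Cxcl10, the interferon-induced chemokine that attracts T cells, had an interaction of 0.78 (SE 0.42, 95% interval -0.14 to 1.71), with -0.99 in healthy and -0.21 in fatty liver, and 0.50 without fatty liver anti-VEGF array 1. Of 21 measured chemokines 0 passed, 15 had a positive interaction, and the median was 0.30, or -0.01 without healthy liver vehicle array 2. Tap1, the peptide transporter of antigen presentation, had an interaction of 0.51 (SE 0.22, limma adjusted p = 0.964), with healthy liver arrays at 9.71, 10.10 and 9.66 against 9.17, 9.18 and 9.25. The 16 measured genes of antigen presentation had a median of 0.12, with 0 passing and 13 positive, and the median was 0.01 without healthy liver vehicle array 2 and 0.28 without fatty liver vehicle array 2. In healthy liver 13 of 19 measured macrophage markers were lower on every anti-VEGF array, against 11.7% of all genes, among them the integrin Itgam (interaction 0.62, SE 0.36), the Fc receptor Fcgr1 (0.63, SE 0.40) and the complement gene C1qb (0.48, SE 0.26). Without healthy liver vehicle array 2 these values were 0.24, 0.23 and 0.23, and the median of the macrophage list was 0.12 instead of 0.37. The macrophage list mean was 8.53, 9.56 and 8.55 under vehicle against 8.34, 8.34 and 8.35 under anti-VEGF in healthy liver, and 10.73, 10.93 and 10.71 against 10.82, 10.71 and 10.31 in fatty liver. The part of macrophage content in the interferon values was not tested.

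Genes of the VEGF pathway and of vessels were measured with unequal precision: 4 of 10 VEGF ligands and receptors had a 95% interval within 1 log2 unit of 0, against 2 of 22 endothelial genes. Vegfa itself read 9.69, 9.46 and 9.75 against 9.75, 9.70 and 9.71 in healthy liver and 10.06, 10.19 and 9.93 against 9.70, 10.10 and 9.93 in fatty liver. The groups overlapped in both livers, and the interaction was -0.24 (SE 0.17, 95% interval -0.61 to 0.13, limma adjusted p = 0.979). Kdr, the main signalling receptor, read 5.87, 9.29 and 6.09 against 5.28, 5.32 and 4.96 in healthy liver and 9.01, 9.57 and 8.97 against 9.10, 8.14 and 7.69 in fatty liver. Vehicle array 2 of healthy liver stood more than 3 log2 units above the others of its group, and the interaction of 1.02 (SE 1.06, 95% interval -1.33 to 3.37) became -0.08 without it. For Flt1, the receptor that also acts as a decoy for Vegfa, the interaction was 0.49 (SE 1.13) and became -0.61 without that array.

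Pecam1 (CD31), found at endothelial junctions and on leukocytes, read 6.21, 9.64 and 6.36 against 6.35, 6.26 and 6.30 in healthy liver and 8.29, 8.90 and 8.28 against 8.94, 8.96 and 9.26 in fatty liver. The fatty liver groups did not overlap, with anti-VEGF higher, and the interaction was 1.67 (SE 1.01, 95% interval -0.56 to 3.90). Cdh5, the cadherin of endothelial junctions, had 1.18 (SE 1.25). Without healthy liver vehicle array 2 these values were 0.55 and 0.14. Sele, the endothelial selectin induced by inflammation, went the other way, with healthy liver arrays at 7.20, 6.52 and 7.11 against 8.47, 8.62 and 8.58 and fatty liver arrays at 6.34, 5.64 and 6.20 against 6.56, 7.15 and 5.98. Its anti-VEGF arrays were all higher in healthy liver and overlapped vehicle in fatty liver (interaction -1.11, SE 0.41, limma adjusted p = 0.964).

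Of 22 measured endothelial genes 0 passed, 21 had a positive interaction and the median was 0.80. The list mean on healthy liver vehicle array 2 was 8.51, against 5.53 on both other vehicle arrays and 5.56 to 5.66 under anti-VEGF. Without that array the median interaction was -0.39, so the sign of the group's value rested on it. The 10 measured VEGF ligands and receptors had a median of 0.22, which was -0.12 without that array. Pgf, the placental growth factor, was negative at -0.68 (SE 0.47).

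Stromal genes shared the same array. The 21 measured fibroblast and matrix genes all had a positive interaction, with 0 passing and a median of 0.98, or 0.36 without healthy liver vehicle array 2. Lum, a proteoglycan of collagen fibrils, read 5.47, 7.25 and 5.42 against 4.44, 4.53 and 4.33 in healthy liver and 4.25, 5.44 and 4.17 against 6.08, 4.38 and 4.53 in fatty liver. Its healthy liver anti-VEGF arrays were all below the limit and below every vehicle array, and in fatty liver anti-VEGF array 1 was the highest of all 6 arrays while arrays 2 and 3 lay within the vehicle range (interaction 2.00, SE 0.80, limma adjusted p = 0.964). Col3a1, a fibrillar collagen, had 1.18 (SE 0.63) and Sparc, a collagen-binding matrix protein, 0.52 (SE 0.27), or 0.70 and 0.32 without healthy liver vehicle array 2. Pdgfrb, the receptor of pericytes and fibroblasts, had 0.49 (SE 0.22, 95% interval -0.0025 to 0.99), and 0.28 without fatty liver anti-VEGF array 3. Pdgfb, a ligand of that receptor, had 1.34 (SE 0.81), whereas the smooth muscle genes Acta2 and Myh11 had -0.25 (SE 0.19) and -0.28 (SE 0.31). The 12 measured pericyte and smooth muscle genes had a median of 0.09, with 8 positive and 0 passing. That median was -0.33 without healthy liver vehicle array 2.

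**Figure D4:**
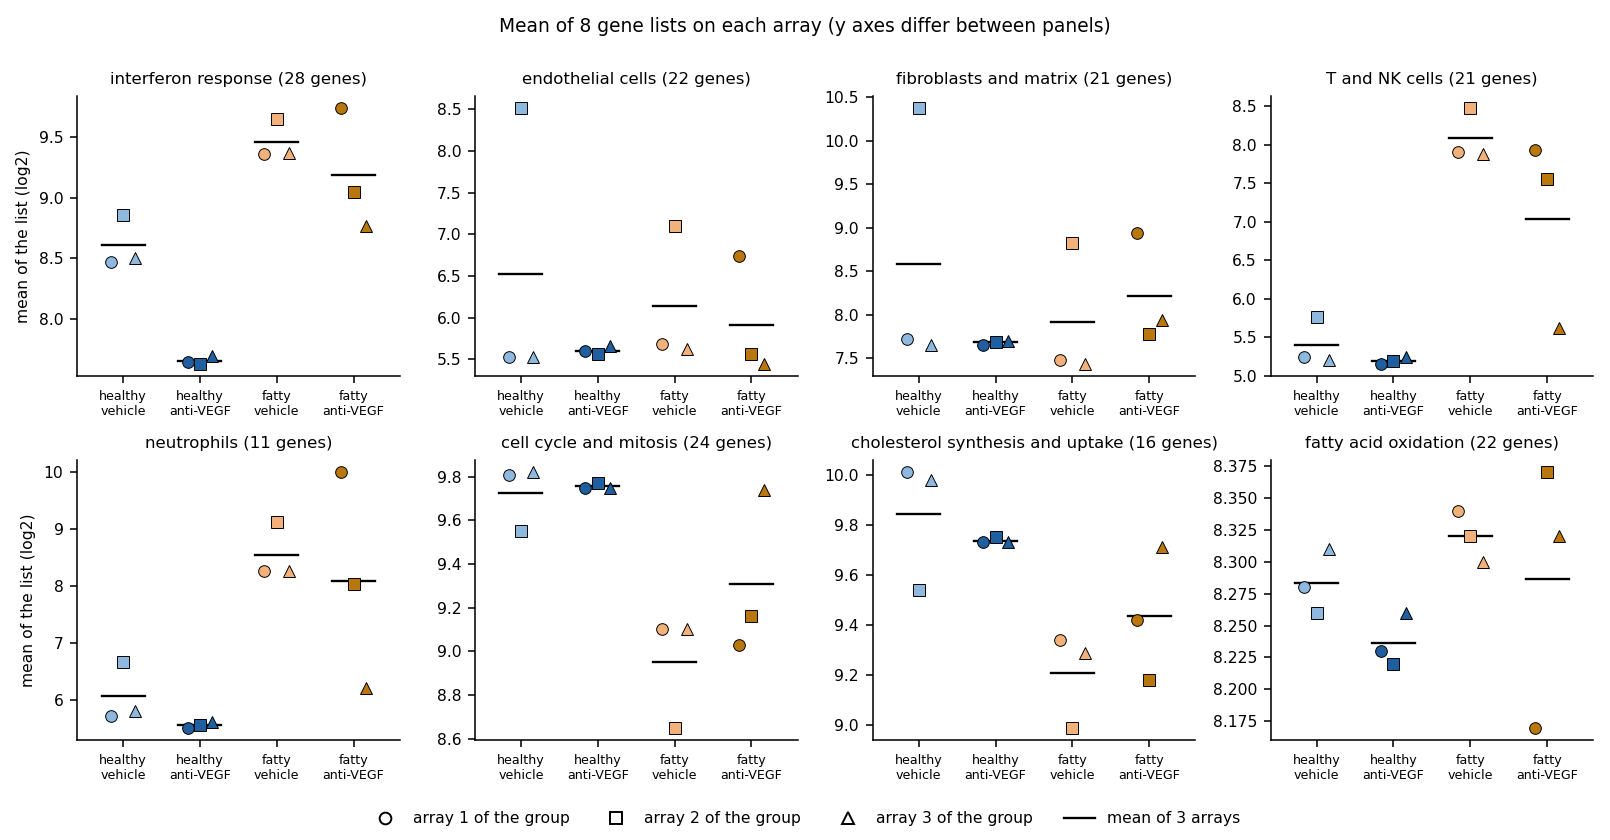
Mean log2 expression of 8 gene lists on each array, 1 symbol per array and a bar at the mean of 3. In healthy liver the interferon list separates treatments on every array, whereas the endothelial and fibroblast means are raised by vehicle array 2 alone, and the fatty liver anti-VEGF arrays spread widely in the T and NK cell, neutrophil and cell cycle lists.

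Lymphocyte genes leaned the other way. All 21 measured T and NK cell genes had a negative interaction, 0 passed, and the median was -0.81. In fatty liver the list mean was 7.90, 8.47 and 7.88 under vehicle against 7.93, 7.56 and 5.62 under anti-VEGF, and in healthy liver it lay between 5.16 and 5.77 on all arrays. Values so near the limit of 4.93 can hide a decrease in healthy liver, so the shared negative sign may follow in part from that low level. Without fatty liver anti-VEGF array 3 the median was -0.17. Ncr1, an activating receptor of NK cells, read 8.86, 9.27 and 8.77 against 8.71, 7.65 and 3.90 in fatty liver. All 6 healthy liver arrays lay below the limit, between 4.25 and 4.78, so Ncr1 was tested through its fatty liver arrays alone. Its groups did not overlap in fatty liver, with array 3 below the limit, and the interaction was -2.22 (SE 1.30, 95% interval -5.10 to 0.66). Tbx21, the transcription factor T-bet, had -0.89 (SE 0.41), and Cd8a, a chain of the cytotoxic T cell coreceptor, -0.89 (SE 0.57).

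The 11 measured neutrophil genes had a median of 0.26 that turned with the array left out, from -0.97 without fatty liver anti-VEGF array 1 to 1.04 without array 3. Their mean on the fatty liver anti-VEGF arrays was 10, 8.04 and 6.21. Of the 11 genes 7 had a positive interaction. Il1r2 and Cxcr2 were negative at -0.99 (SE 1.21) and -0.91 (SE 1.28). With 1 array left out they ran from -1.774 to 0.259 and from -2.017 to 0.261. Csf3r, the receptor for granulocyte colony-stimulating factor, had an interaction of 0.73 (SE 0.50), and the neutrophil collagenase Mmp8 0.72 (SE 0.72). The lowest values with 1 array left out were 0.325 for Csf3r, without fatty liver anti-VEGF array 1, and 0.14 for Mmp8, without healthy liver vehicle array 2.

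The fuel pathways of a tumour in a fatty liver could differ in their response, and for several of them the intervals were narrow. All 22 measured genes of fatty acid oxidation had a 95% interval within 1 log2 unit of 0, 0 passed, and the median was 0.03. Cpt1a, the gate through which long-chain fatty acids enter mitochondria, read 9.28, 9.73 and 9.41 against 9.31, 9.33 and 9.25 in healthy liver and 9.93, 10.04 and 9.92 against 9.67, 10.35 and 10.03 in fatty liver. The groups overlapped in both livers, and the interaction was 0.24 (SE 0.23, 95% interval -0.27 to 0.74). Acads, which oxidises short-chain acyl-CoA, had -0.23 (SE 0.11), and Hadha, a subunit of the mitochondrial trifunctional protein, 0.18 (SE 0.12).

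Fabp4, a fatty acid carrier of adipocytes, macrophages and vessels, read 10.47, 10.67 and 10.43 against 10.92, 10.88 and 10.84 in healthy liver and 10.40, 10.46 and 10.37 against 9.87, 10.24 and 8.87 in fatty liver. Its anti-VEGF arrays were all above vehicle in healthy liver and all below it in fatty liver. The interaction was -1.11 (SE 0.38, 95% interval -1.94 to -0.27, limma adjusted p = 0.964). Its muscle-type relative Fabp3 had -0.58 (SE 0.26), the lipid droplet proteins Plin5 and Hilpda -0.56 (SE 0.18) and -0.57 (SE 0.27), and Plin2, the general droplet coat, 0.14 (SE 0.16). The fatty acid transporter Cd36 had 0.43 (SE 0.94) and Angptl4, an inhibitor of lipoprotein lipase, 0.44 (SE 0.67). The 22 measured genes of fatty acid uptake and storage had a median of -0.01, with 11 positive and 0 passing.

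Synthesis of fatty acids and sterols leaned to positive values. Of 16 measured cholesterol genes 0 passed, 15 had a positive interaction and the median was 0.31. Cyp51, the sterol demethylase, read 9.21, 8.72 and 9.02 against 8.62, 8.65 and 8.58 in healthy liver and 8.30, 8.16 and 8.22 against 8.56, 8.20 and 8.64 in fatty liver, with separate groups in healthy liver and overlap in fatty liver (interaction 0.60, SE 0.20, limma adjusted p = 0.964). Mvd, a decarboxylase of the mevalonate route, had 0.64 (SE 0.28), and Insig1, the sterol sensor of the endoplasmic reticulum, 0.38 (SE 0.18). The 14 measured fatty acid synthesis genes had a median of 0.30, with 13 positive and 0 passing, among them the desaturases Fads1 (0.76, SE 0.29) and Fads2 (0.54, SE 0.27). Without fatty liver anti-VEGF array 3 the medians of the cholesterol and fatty acid synthesis lists were 0.14 and 0.16. Pparg, the lipid-sensing nuclear receptor, had an interaction of 0.88 (SE 0.32), with -0.90 in healthy and -0.02 in fatty liver, and Abca1, a cholesterol exporter, had 0.90 (SE 0.52). Without healthy liver vehicle array 2 they had 0.545 and 0.36, and the median of the 9 measured lipid-sensing receptor genes was 0.04 instead of 0.42.

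Glycolysis genes had narrow intervals around 0, and hypoxia genes varied more. All 18 measured glycolysis genes and all 25 measured respiratory chain genes had 95% intervals within 1 log2 unit of 0, with medians of -0.04 and -0.03 and 0 passing. Slc2a1, the glucose transporter, read 12.61, 12.56 and 12.59 against 12.68, 12.71 and 12.67 in healthy liver and 12.38, 12.19 and 12.42 against 12.25, 12.34 and 12.61 in fatty liver. Anti-VEGF was higher on all healthy liver arrays by a small step and overlapped vehicle in fatty liver, and the interaction was -0.02 (SE 0.14, 95% interval -0.34 to 0.29). The glycolytic enzymes Pgk1 and Pgam1 had -0.21 (SE 0.13) and -0.19 (SE 0.12). Of 27 measured hypoxia genes 0 passed, 21 had an interval within 1 log2 unit, and the median was -0.02. Car9, the hypoxia-induced carbonic anhydrase, had 0.06 (SE 0.33, 95% interval -0.67 to 0.78), and Ndrg1, another hypoxia-induced gene, -0.26 (SE 0.12). Lox, the enzyme that cross-links collagen and is induced by hypoxia, had a large and poorly measured value. It read 5.27, 9.23 and 4.86 against 4.82, 4.82 and 4.91 in healthy liver and 5.29, 7.60 and 4.98 against 7.54, 6.42 and 6.12 in fatty liver. The groups overlapped in both livers, vehicle array 2 was the highest of each vehicle group, and the interaction was 2.33 (SE 1.47, 95% interval -0.93 to 5.60), or 0.945 without healthy liver vehicle array 2.

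Cell division genes had positive interactions, and their size depended on 1 array. All 24 measured cell cycle genes were positive, 0 passed, and the median was 0.32. In fatty liver the list mean was 9.10, 8.65 and 9.10 under vehicle against 9.03, 9.16 and 9.74 under anti-VEGF, and without anti-VEGF array 3 the median was 0.12. Mki67, the marker of dividing cells, had 0.51 (SE 0.24, 95% interval -0.02 to 1.04), the mitotic kinase Plk1 0.47 (SE 0.27) and the transcription factor Foxm1 0.54 (SE 0.33). The array with the highest cell cycle mean of the fatty liver group, array 3, also had its lowest T and NK cell and neutrophil means. The part of cell content in these values was not tested.

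Clock genes were spread on both sides. Cry1, a repressor of the clock, was lower under anti-VEGF on every array of both livers, with differences of -0.29 in healthy and -0.70 in fatty liver (interaction -0.41, SE 0.16). Clock, an activator that Cry1 restrains, had 0.34 (SE 0.16) and Nr1d2, a nuclear receptor of the clock, 0.46 (SE 0.23). The 13 measured clock genes had a median of 0.12, or 0.02 without fatty liver vehicle array 2, and 0 passed. The 7 measured hepatocyte genes were all negative, with a median of -0.25, Apoa1 at -0.32 (SE 0.17), and levels near the limit.

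**Figure D5:**
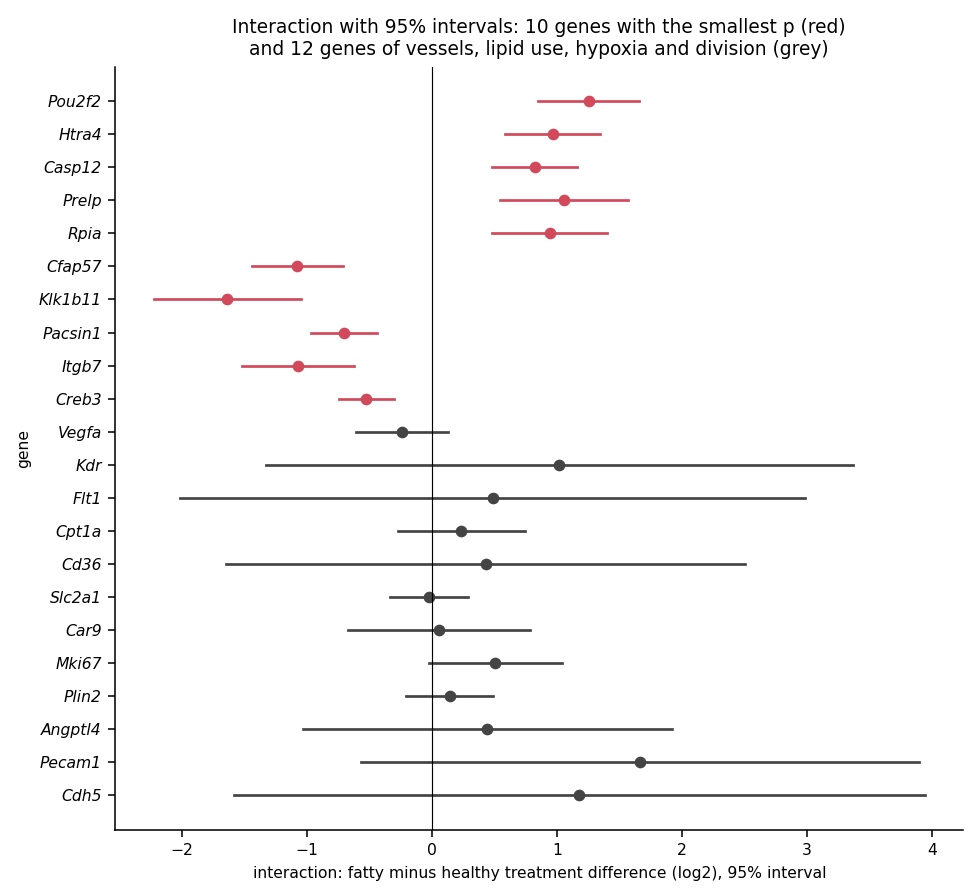
Interaction (log2) with 95% intervals per gene, not adjusted for the number of genes, for the 10 genes with the smallest p (red) and 12 genes of vessels, lipid use, hypoxia and division (grey). Slc2a1 and Plin2 have narrow intervals around 0, and those of Pecam1, Cdh5, Kdr, Flt1 and Cd36 span more than 4 log2 units.

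The count of genes past the threshold depended on how the 4 arrays that stood apart were treated. With array weights, which gave these arrays 0.14 to 0.24 and the other 8 arrays 1.28 to 3.80, 877 genes (6.6%) passed with a positive and 600 (4.52%) with a negative interaction. With the 4 arrays left out, a choice made after seeing the data that leaves 1 fatty liver anti-VEGF array assumed to vary like the others, 327 (2.46%) and 159 (1.2%) passed, and 394 genes passed in both fits in the same direction. All 10 genes named above by smallest p passed with array weights and kept their sign without the 4 arrays, with Klk1b11 at -1.475. They were chosen by p on these same arrays, so their passing is not separate support for them. Both fits rest mainly on the same 8 arrays, so passing in both is not independent agreement. Of these 8, all but fatty liver anti-VEGF array 2 are among the nearly alike arrays, which may not stem from different mice. If they do not, both fits understate the spread and overstate the number of calls. Of the 28 interferon genes, 14 passed with array weights and 11 without the 4 arrays, all positive, among them Iigp1 (1.37 with array weights).

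These calls rest on contrasts that coincide with Xist. The vehicle arrays that remain or carry the weight are arrays 1 and 3 of both livers, which have Xist, and no anti-VEGF array has it. Y-linked genes followed in part. Uty read 4.04 and 4.03 on those healthy liver vehicle arrays and 5.39 to 5.54 under anti-VEGF. In fatty liver Uty read 4.16 and 3.84 against 8.27, 8.40 and 8.03. The mean of 3 Y-linked genes was 4.74 to 5.02 under anti-VEGF in healthy liver. It was 3.82 and 3.74 on vehicle arrays 1 and 3 there, and 6.79 on vehicle array 2. Treatment and the sex of the tissue's cells, as read from Xist, cannot be told apart in these fits. Ceruloplasmin (Cp), the ferroxidase of plasma, was singled out after its values were seen. It read 5.94, 7.20 and 5.96 against 5.23, 5.14 and 5.14 in healthy liver and 5.46, 5.94 and 5.44 against 6.04, 5.94 and 6.24 in fatty liver. Anti-VEGF was below vehicle on every array in healthy liver and above it in fatty liver, where the nearest arrays of the groups are equal at 2 decimals. The interaction was 1.66 on all 12 arrays (SE 0.41, limma adjusted p = 0.763), 1.41 without vehicle array 2 (limma adjusted p = 0.0186) and 2.17 with only vehicle array 2 (limma adjusted p = 0.0407). The last fit has 1 vehicle array per liver, each assumed to vary like the anti-VEGF arrays.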

How the data were processed

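Total RNA of 12 tumours was hybridised to Affymetrix arrays by the authors after a whole-transcript labelling step, per the labels' protocols, and processed with Affymetrix Expression Console, per the submitters' processing notes. Not given in the sources used here: its version, the summarisation, the build. The deposited table holds 1 log2 value per row and array; that the scale is log2 was inferred from its range and from the column medians of 4.88 to 4.99. Of 41345 rows, 23521 named 1 gene, 1814 several and 16010 none. For the 1082 genes with several rows the brightest row was used. Genes above 4.93 on at least 3 arrays were tested.

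Groups came from the sample titles. A model with 4 group means was fitted over all 12 arrays with limma 3.58.1 in R 4.3.3, the interaction was taken as a contrast, and p-values were adjusted by Benjamini-Hochberg over the 13286 genes at a threshold of 0.05. The code was tested on simulated data. Intervals use 10.4 degrees of freedom, 8 residual and 2.4 from the prior. Arrays give no read depth, and their number limits the precision. The members and the 41 gene lists were chosen with earlier results of these data known. Had 5 or more genes passed in a direction, the 15 largest would have been named; as none did, the 5 with the smallest p in each direction were, passing over symbols of predicted genes, clones and receptor gene segments. The lists described gave at most 4 genes each, again taken by p, and 12 fixed genes of vessels, lipid use, hypoxia and division were added. Exceptions, the check of Xist and Uty, and Ifit2, Ifit3 and Isg20 were chosen after their values were seen. A motif search planned for passing genes applied to none, and the promoters of interferon genes were described after their values were seen.

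Alternatives were the filter, the mean of a gene's rows, quantile normalization, median centring, limma-trend, array weights, a replicate block, averaging of near-identical arrays, leaving out vehicle arrays, leaving out each array and, added after seeing the data, leaving out the 4 arrays that stood apart.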

Additional observations from a re-analysis of the deposited data

Results flagged for a closer look

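For 8 of the genes described, the 3 anti-VEGF arrays lay wholly on one side of the 3 vehicle arrays in healthy liver and wholly on the other side in fatty liver. Anti-VEGF was lower in healthy and higher in fatty liver for Gm4951 (interaction 1.77), Cp (1.66), Pou2f2 (1.25), Prelp (1.05) and Rpia (0.94). It was higher in healthy and lower in fatty liver for Fabp4 (-1.11), Pacsin1 (-0.70) and Creb3 (-0.52). The difference between the livers was tested as the interaction in limma, and none of the 8 passed on all 12 arrays. Over all 13286 genes, 32 (0.241%) had the first pattern and 58 (0.437%) the second. The 8 genes had been named by their interaction p or after their values were seen, so their number follows in part from that choice.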

How the results depend on the processing

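The interaction had 0 genes past the threshold in limma on all 12 arrays and with any 1 array left out (0 to 0). It had 1477 with array weights (877 positive, 600 negative), 486 without the 4 arrays that stood apart (327 and 159; added after seeing the data), 19 without vehicle arrays 1 and 3 of both livers (19 positive) and 3 without vehicle array 2 of both livers (2 and 1). In healthy liver the treatment count was 2 with median centring, 9 with limma-trend, 1661, 1380, 754 and 3 under those 4 settings in the same order, and 0 to 41 with 1 array left out (41, 4 and 31 without fatty liver anti-VEGF array 1, 2 and 3). In fatty liver it was 1848, 628, 0 and 5 in that order, 0 with near-identical arrays averaged, and 0 to 11 with 1 array left out (11 and 4 without anti-VEGF array 1 and 2). The cause was not tested.

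The replicate block gave 0 genes for the interaction (723 at an unadjusted p below 0.05) and 0 for treatment in fatty liver. Deviations of same-numbered arrays correlated above 0.1 for every number only between the vehicle groups (0.536 to 0.701), so the numbers do not pair all 4 groups. Median centring moved the median interaction of all genes to -0.065. With near-identical arrays averaged it was 0.016, in a fit that keeps only a single averaged value for healthy liver anti-VEGF.

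Of 1930 recomputed values of 81 genes, 1811 kept direction and side of the threshold, 88 newly passed (47 with array weights, 36 without the 4 arrays) and 31 changed sign. With array weights these were Vegfa (0.081) and Flt1 (-0.122). Without the 4 arrays they were Vegfa (0.098), Kdr (-0.06) and Flt1 (-0.185). Without vehicle array 2 of both livers they were Flt1 (-0.067), Cd36 (-0.131), Car9 (-0.11) and Ifit3 (-0.034). Quantile normalization turned Slc2a1 (0.013), Car9 (-0.065) and Ifit3 (-0.037), and median centring turned Car9 (-0.031) and Ifit3 (-0.036). Slc2a1 was 0.004 with near-identical arrays averaged and 0.089 without vehicle arrays 1 and 3. With 1 array left out the values ran from -0.084 to 1.628 for Kdr, -0.608 to 1.151 for Flt1, -0.347 to 1.066 for Cd36, -0.128 to 0.051 for Slc2a1, -0.153 to 0.347 for Car9, -0.22 to 0.839 for Angptl4, -0.562 to 0.021 for Isg20 and -0.133 to 0.219 for Ifit3. Of 528 recomputed list medians, 490 moved by less than 1 SD. Of the 38 that moved further, 8 crossed 0. Crossings by smaller shifts are not in that count, such as the neutrophil median of -0.063 without healthy liver vehicle array 2.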
